A study of Homo sapiens with 12 samples.

Results

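The respiratory chain of mitochondria is assembled from proteins of 2 genomes, and the transcripts of its subunits were measured here by RNA-seq in 12 libraries. The members were all rows of the expression table whose symbol starts with MT-ND, MT-CO, MT-CYB or MT-ATP, with NDUFA, NDUFB, NDUFC, NDUFS or NDUFV and a digit, with UQCR, with COX4, COX5, COX6, COX7 or COX8, or with ATP5, together with SDHA, SDHB, SDHC, SDHD, CYC1 and CYCS. They numbered 104 of 20307 genes. The mitochondrial genome encodes 13 of them, of which 7 belong to complex I, 1 to complex III, 3 to complex IV and 2 to complex V. The nuclear genome encodes 91, of which 37 belong to complex I, 4 to complex II, 10 to complex III, 19 to complex IV and 20 to complex V, with cytochrome c as the last. Rows were taken by symbol, so these counts need not equal the full sets of subunits. Complexes I and V each hold 1 read-through locus, complex III holds the UQCRH copy UQCRHL, and NDUFA4 and NDUFA4L2 were placed in complex IV.

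The 4 groups held 3 libraries each. H1299, a human non-small-cell lung carcinoma line, was sequenced as cells whose genotype is given as DCBLD2 overexpression and as cells given as wild type. THP-1, a human monocytic leukaemia line that the phorbol ester PMA drives towards macrophage-like cells, carried no change of its own and received PMA in both of its groups. PMA was given for 24 h, and the cells then spent 48 h with H1299 labelled DCBLD2 or with H1299 labelled control. The series' design text calls this co-culture, and the sample labels name supernatant. The labels do not say how DCBLD2 was introduced, whether the H1299 cells came from 1 clone, or whether the 3 libraries of a group came from separate cultures, so p-values measure the spread between these libraries, which may be technical. DCBLD2 itself went against the labels: its level was 105, 98.2 and 92.5 TPM in the H1299 libraries labelled DCBLD2, against 247, 148 and 196 TPM in those labelled control. The groups are therefore called labelled DCBLD2 and labelled control throughout, and the direction of each comparison rests on the labels.

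Complexes I and II pass electrons from NADH and succinate to ubiquinone, complex III passes them on to cytochrome c, and complex IV hands them to oxygen. Complexes I, III and IV pump protons as they do so, and complex V, the ATP synthase, uses the proton gradient to make ATP. All complexes but II combine subunits read from mitochondrial DNA, which is transcribed inside the organelle as long polycistronic RNAs, with subunits read from nuclear genes and imported. Complex II is wholly nuclear-encoded.

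Total counts ran between 14578887 and 23388187 in H1299 and between 18606739 and 26787853 in THP-1. The spread between libraries beyond counting was 13.3% in the H1299 fit and 1.96% in the THP-1 fit. The narrow THP-1 spread lets small differences pass a test. Carcinoma markers summed to between 180 and 192 TPM in THP-1 labelled DCBLD2 and between 226 and 239 TPM in THP-1 labelled control. KRT19 and EPCAM were at 0 in both, and the other 10 of the 12 listed were above 0 in all 3 libraries of each. Myeloid markers summed to between 7896 and 7959 TPM in THP-1 labelled DCBLD2 and between 5479 and 5532 TPM in THP-1 labelled control. By edgeR at an adjusted p below 0.05, 9 of the 12 myeloid markers were higher in THP-1 labelled DCBLD2 and 3 lower. Of all genes tested there, 34.5% were higher and 33.6% lower. In H1299 the myeloid list summed to between 201 and 205 TPM in labelled DCBLD2 and between 143 and 145 TPM in labelled control, most of it CD68 at 196 to 200 TPM in labelled DCBLD2 and 135 to 138 TPM in labelled control, with PTPRC at 0, and carcinoma markers summed to at least 3989 TPM in every library. The part of these markers in the results on the subunits was not tested.

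In THP-1 the subunits of both genomes moved apart. The 13 mitochondrially encoded transcripts summed to 43537, 43024 and 45108 TPM in THP-1 labelled DCBLD2, against 62826, 62627 and 63491 TPM in THP-1 labelled control. The 91 nuclear-encoded transcripts summed to 20620, 19874 and 19639 TPM in THP-1 labelled DCBLD2, against 14257, 14167 and 14119 TPM in THP-1 labelled control. The groups overlapped in neither sum. In THP-1 labelled DCBLD2 the mitochondrial sum differed from labelled control by -30.3% and the nuclear sum by 41.4%. TPM values of a library share a fixed total, so a fall of abundant transcripts raises all others. With the mitochondrially encoded genes taken out of that total, the nuclear sum was 21558, 20768 and 20567 TPM in labelled DCBLD2 against 15213, 15113 and 15076 TPM in labelled control, a difference of 38.5%. In bulk RNA, fewer cells of a type and less RNA per cell cannot be told apart.

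**Figure D1:**
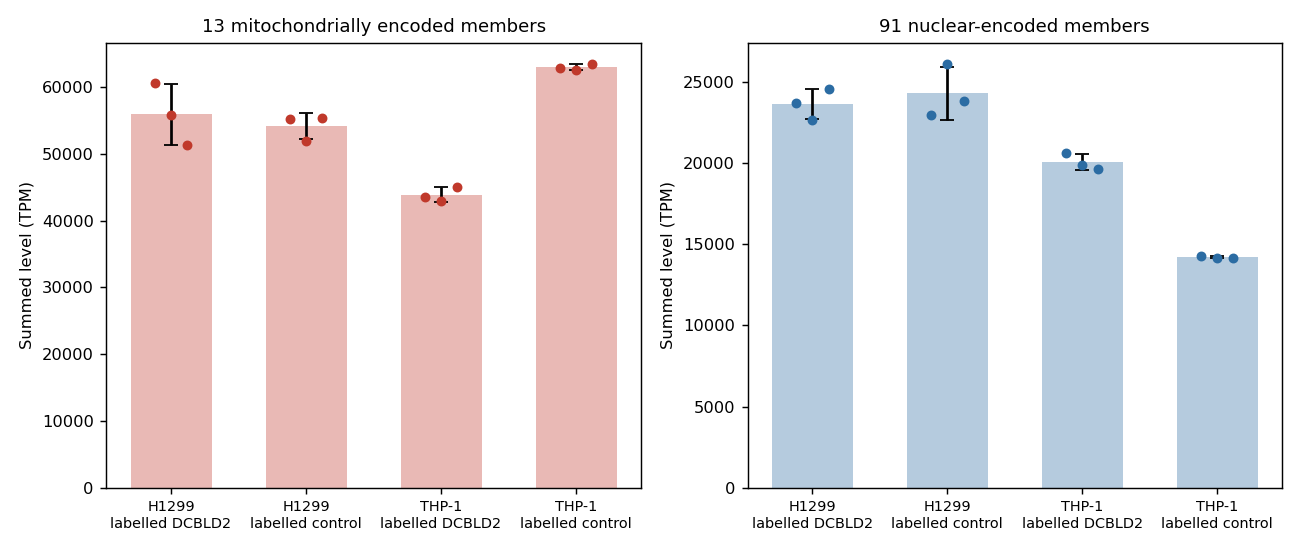
Summed level in TPM (vertical axes, from 0) of the 13 mitochondrially encoded members (left) and the 91 nuclear-encoded members (right) in each group. Bars are means of 3 libraries, points are libraries and error bars are SD. In THP-1 the mitochondrial sum is 43889 TPM in labelled DCBLD2 and 62981 TPM in labelled control, and the nuclear sum is 20045 TPM in labelled DCBLD2 and 14181 TPM in labelled control.

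By edgeR's quasi-likelihood test on counts, with p-values adjusted over all genes by Benjamini-Hochberg and a call at an adjusted p below 0.05, 12 of the 13 mitochondrially encoded members were called lower in THP-1 labelled DCBLD2 and 1 was called higher. Of 13120 genes tested, 68.1% were called in either direction, 34.5% higher and 33.6% lower. The median log2 fold change of the 13 was -0.53, beside 0.000457 over all genes. All 13 had groups that did not overlap in CPM (counts scaled to library totals), as did 71.2% of all genes tested.

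The complex I core subunit MT-ND2 had the largest fall of the 13. It was read at 3570, 3578 and 3714 TPM in THP-1 labelled DCBLD2 and at 7001, 6984 and 7144 TPM in THP-1 labelled control. Its log2 fold change was -0.92 ± 0.01 (SE; adjusted p = 8.63e-26, edgeR). Its 3 lowest libraries all carried the DCBLD2 label and lay close together. The other complex I core subunits that fell were MT-ND4 at -0.66, MT-ND6 at -0.65, MT-ND5 at -0.63, MT-ND4L at -0.53 and MT-ND1 at -0.48 on the log2 scale. MT-ND3, a small complex I subunit, was the only one of the 13 called higher: it stood at 2524, 2121 and 2132 TPM in labelled DCBLD2 and at 2027, 1983 and 1993 TPM in labelled control. The rise was 0.21 ± 0.04 on the log2 scale (SE; adjusted p = 9.19e-05, edgeR), and it turned to -0.47 under a correction for transcript length described below.

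Complex IV supplied the most abundant members. MT-CO1, the catalytic subunit that binds haem and copper, had 8260, 8370 and 8770 TPM in THP-1 labelled DCBLD2 and 13244, 13032 and 12983 TPM in THP-1 labelled control. MT-CO1 fell by 0.59 on the log2 scale, while MT-CO2, which receives electrons from cytochrome c, fell by 0.28 and MT-CO3 fell by 0.26. The complex III subunit MT-CYB fell by 0.27. The ATP synthase proton-channel subunit MT-ATP6 fell by 0.48, and its small partner MT-ATP8 fell by 0.66. The 13 responses spread between -0.92 and 0.21, and the largest standard error among them was 0.05. With the wider common spread of the H1299 libraries and a likelihood ratio test, 9 of the 13 were called, all lower. Under it MT-CO2, MT-CO3, MT-CYB and MT-ND3 lost their calls (adjusted p = 0.153, 0.186, 0.173 and 0.306, edgeR). The share of all genes called with that spread is not given here.

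Neighbouring mitochondrial genes can share bases, and reads there cannot be assigned to 1 of them. MT-ATP8 and MT-ATP6 overlap by 46 bases (GRCh38, plus strand, chrM:8527-8572), shown here because the levels of both genes draw on this stretch; the capitals mark the start codon of MT-ATP6 and the stop codon of MT-ATP8.
MT-ATP8 and MT-ATP6 overlap: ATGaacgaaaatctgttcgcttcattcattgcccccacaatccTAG
MT-ND4L and MT-ND4 overlap by 7 bases (10760 to 10766). MT-ND6 lies on the opposite strand from the other 12, and the sources used here do not say whether counting used strand, so its level may hold reads of the transcript across from it. MT-ND6 stood at 773, 745 and 786 TPM in THP-1 labelled DCBLD2, against 1215, 1246 and 1242 TPM in THP-1 labelled control.

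**Figure D2:**
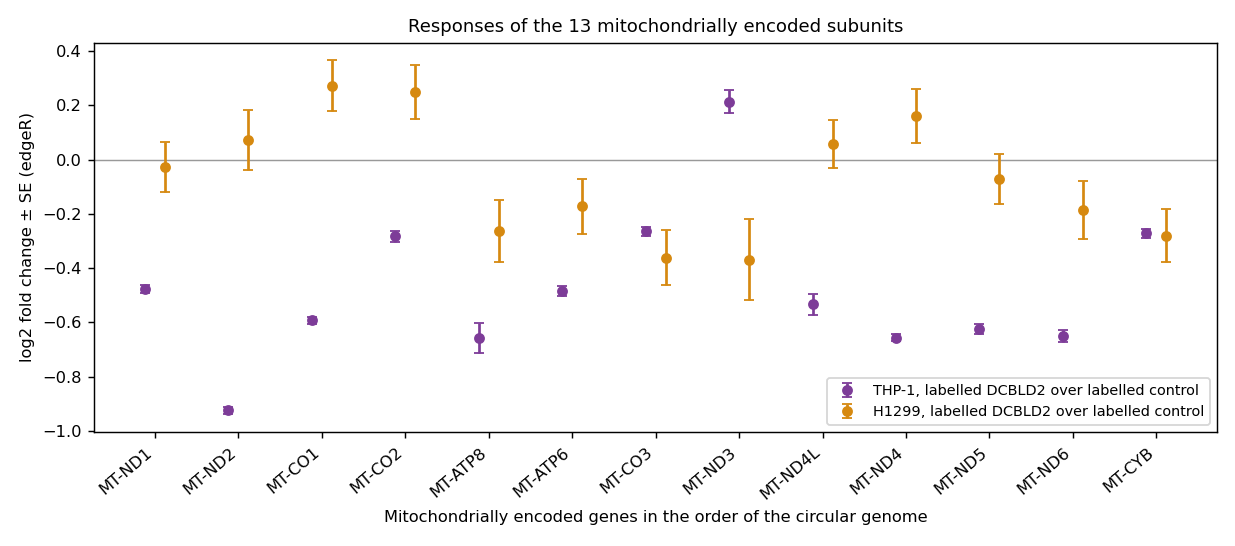
Log2 fold change with its standard error (edgeR, vertical axis) of the 13 mitochondrially encoded members, placed on the horizontal axis in their order on the circular genome. Purple is THP-1 and orange is H1299, each labelled DCBLD2 over labelled control, 3 libraries a group. In THP-1 all members but MT-ND3 lie below 0, with MT-ND2 lowest at -0.92.

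Of the 91 nuclear-encoded members, 84 passed the filter on low counts in THP-1. Of these, 72 were called higher in THP-1 labelled DCBLD2, 6 were called lower and 6 were not called. Their log2 fold changes had a median of 0.54 and ran between -1.12 and 1.25, and 80 of 84 had groups that did not overlap, beside the same 71.2% of all genes. The 7 that were not tested were COX4I2, COX6A2, COX6B2, COX7A1, COX7B2, COX8C and ATP5MGL. By complex, the median was 0.57 for complex I (33 of 37 higher, 2 lower), 0.15 for complex II (3 of 4 higher), 0.41 for complex III (6 of 10 higher, 2 lower), 0.71 for complex IV (13 of 13 tested higher) and 0.52 for complex V (16 of 19 tested higher, 2 lower).

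**Figure D3:**
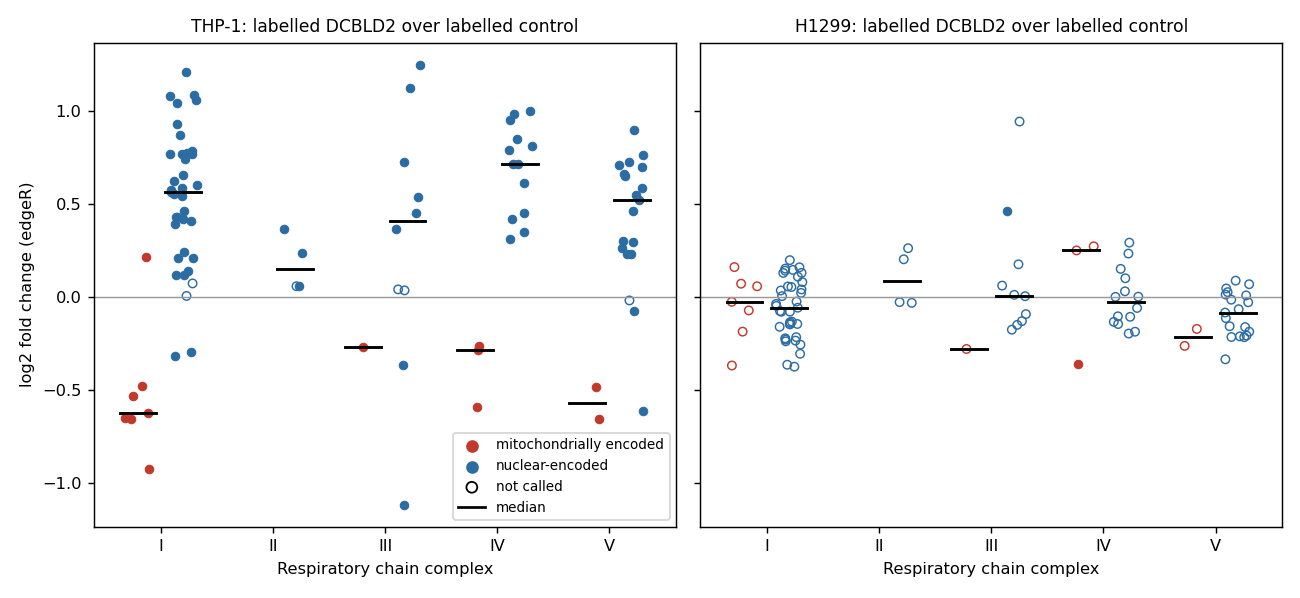
Log2 fold change (edgeR, vertical axis) of members of complexes I to V, THP-1 left and H1299 right, labelled DCBLD2 over labelled control. Red is mitochondrially encoded and blue nuclear-encoded, filled points are called at an adjusted p below 0.05, black lines are medians, and cytochrome c is not drawn. In THP-1 the medians of complex I are -0.63 for mitochondrially and 0.57 for nuclear-encoded subunits, and in H1299 all but 2 points are open.

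The supernumerary subunits of complex I surround the catalytic core. On the log2 scale they stood at a median of 0.60 (26 of 29 higher, 1 lower). The 7 nuclear-encoded core subunits stood at 0.24 (6 higher, 1 lower). Responses in THP-1 also moved with transcript length, as described below, and the part of length in this contrast was not tested. NDUFB2, a supernumerary subunit of the membrane arm (chromosome 7, 140690777 to 140722790, GRCh38), was read at 244, 219 and 226 TPM in THP-1 labelled DCBLD2 and at 102, 97.6 and 107 TPM in THP-1 labelled control. Its groups stood far apart, at a log2 fold change of 1.21 ± 0.05 (SE; adjusted p = 7.78e-17, edgeR). NDUFB7, another membrane-arm subunit, had 222, 204 and 236 TPM in labelled DCBLD2 against 107, 108 and 103 TPM in labelled control, with its log2 fold change at 1.08. The falls in complex I were NDUFS1 and NDUFA10. NDUFS1, the largest core subunit, which carries iron-sulfur clusters, stood at 37.4, 37.6 and 37.3 TPM in labelled DCBLD2 and 55.2, 52 and 48.9 TPM in labelled control. NDUFS1 changed by -0.32 ± 0.04 (SE; adjusted p = 2.14e-08, edgeR), and NDUFA10, a supernumerary subunit, by -0.29. NDUFA9 and NDUFV3 were not called.

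Complex II, which is also the succinate dehydrogenase of the citric acid cycle, moved least. SDHA, the flavoprotein subunit, had 130, 134 and 131 TPM in THP-1 labelled DCBLD2 and 130, 124 and 125 TPM in THP-1 labelled control. SDHA was called at a log2 fold change of 0.06 (adjusted p = 0.0393, edgeR). Its call was lost by DESeq2 (adjusted p = 0.135), and in edgeR without labelled DCBLD2 replicate 2 or labelled control replicate 2 or 3 (adjusted p = 0.156, 0.175 and 0.107). SDHB, the iron-sulfur subunit, rose by 0.24 and SDHC, a membrane anchor, by 0.37. SDHD, the other anchor, had a log2 fold change of 0.06 and was not called (adjusted p = 0.14, edgeR). Under the length correction SDHC stood at -0.19 and SDHD at -0.24, and SDHB was no longer called (adjusted p = 0.146, edgeR). With the common spread of H1299 none of the 4 was called, at adjusted p = 0.251 for SDHB and 0.0587 for SDHC (edgeR).

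In complex III, 6 members were called higher and 2 lower. UQCRQ, a small subunit bound to cytochrome b, had 197, 169 and 186 TPM in THP-1 labelled DCBLD2 and 86.5, 77.2 and 77.3 TPM in THP-1 labelled control. The log2 fold change of UQCRQ, 1.25 ± 0.05 (SE; adjusted p = 1.17e-17, edgeR), was the highest of all members tested in THP-1. UQCR11, another small subunit, rose by 1.12, and CYC1, the cytochrome c1 that reduces cytochrome c, rose by 0.54, at 359, 368 and 361 TPM in labelled DCBLD2 against 254, 257 and 258 TPM in labelled control. UQCRC1, a large core protein, and UQCRFS1, the Rieske iron-sulfur protein, had log2 fold changes of 0.04 each and were not called. UQCRC2, the other large core protein, was lower, at 80.4, 86.8 and 88.5 TPM in labelled DCBLD2 against 111, 113 and 113 TPM in labelled control. UQCRC2 changed by -0.37 ± 0.04 (SE; adjusted p = 1.33e-09, edgeR). With the common spread of H1299 its adjusted p was 0.0601, that of NDUFS1 0.117 and that of NDUFA10 0.147. The lowest fold change of all, -1.12 for UQCRHL, belongs to a near-identical copy of UQCRH read at 1.77 TPM or less in THP-1, and reads of the pair can be split between them.

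In complex IV, every nuclear-encoded member that was tested in THP-1 rose. COX8A, a small subunit of the enzyme's core region, had 756, 738 and 732 TPM in THP-1 labelled DCBLD2 and 386, 393 and 363 TPM in THP-1 labelled control, with its log2 fold change at 0.997 ± 0.03 (SE; adjusted p = 2.9e-20, edgeR). COX7C, another small subunit, had 489, 470 and 476 TPM in labelled DCBLD2 and 243, 256 and 245 TPM in labelled control. COX7C changed by 0.98 ± 0.03 on the log2 scale (SE; adjusted p = 7.68e-20, edgeR), and neither gene's groups overlapped. The smallest rises among complex IV members were COX5A at 0.31, a subunit on the matrix side, and COX4I1 at 0.35, a subunit that binds ATP. CYCS, the mobile electron carrier between complexes III and IV, had 157, 157 and 153 TPM in labelled DCBLD2 against 132, 133 and 128 TPM in labelled control, and rose by 0.31. With the common spread of H1299, CYCS, COX4I1 and COX5A lost their calls (adjusted p = 0.116, 0.074 and 0.122, edgeR).

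In complex V the membrane subunits outside the c-ring had the highest median of its parts, 0.71 over 5 tested, all of them higher. ATP5ME, 1 of these, had 159, 140 and 128 TPM in THP-1 labelled DCBLD2 and 80.8, 75 and 81.1 TPM in THP-1 labelled control, with its log2 fold change at 0.89 ± 0.08 (SE; adjusted p = 1.9e-10, edgeR). The 3 genes of the proton-carrying c-ring all rose, ATP5MC1 by 0.30, ATP5MC2 by 0.58 and ATP5MC3 by 0.55, and so did the 4 peripheral stalk genes, with a median of 0.35. Of the 5 genes of the F1 head, which makes ATP, and its central stalk, 3 were called higher and 2 lower. ATP5F1A, the alpha subunit, stood at 243, 243 and 243 TPM in labelled DCBLD2 and 382, 385 and 375 TPM in labelled control, with its log2 fold change at -0.61 ± 0.02 (SE; adjusted p = 2.91e-19, edgeR). ATP5F1B, the catalytic beta subunit, was called at -0.08 with groups that overlapped in CPM, and its adjusted p was 0.75 with the common spread of H1299 (edgeR); ATP5F1E, the epsilon subunit of the stalk, rose by 0.76. ATP5IF1, the inhibitor that blocks ATP hydrolysis by the F1 head, rose by 0.29. Under the length correction ATP5IF1 stood at -0.17 and ATP5MC1 at -0.19, and with the common spread of H1299 neither was called (adjusted p = 0.152 and 0.131, edgeR). The part of transcript length in the contrasts among parts of complex V was not tested.

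Most subunits of the chain have short transcripts, and in THP-1 the response of genes in general moved with transcript length. Nuclear-encoded members had a median length of 750 nucleotides (median over annotated transcripts of each gene, which may not be the ones expressed). Across the 84 tested members, log2 fold change and log10 length had r = -0.58 and rho = -0.52 in THP-1, and across 85 members r = 0.24 and rho = 0.21 in H1299, given as descriptions over genes that share the same libraries. Among transcripts of up to 750 nucleotides, 42 of 42 members were called higher in THP-1 with a median of 0.68, and 68.0% of 391 other nuclear genes were called higher with a median of 0.46. Between 1500 and 2500 nucleotides the member median was 0.10 over 14 members and that of 3725 other genes -0.0092. The share of counts from cytosolic ribosomal proteins, which are also short, was 5.28% to 5.56% in THP-1 labelled DCBLD2 and 3.85% to 3.88% in THP-1 labelled control, and so moved with the same groups. Whether the length pattern lies in the cells or in the libraries was not tested.

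An offset that follows each library's trend over transcript length, added after the pattern was seen, left 53 nuclear-encoded members called higher and 15 lower in THP-1, with a median of 0.18, and all 13 mitochondrially encoded members lower, with a median of -0.73. The directions that turned in that fit among the members named here were MT-ND3, SDHC, SDHD, ATP5IF1, ATP5MC1, COX5A, NDUFA12 and NDUFA3, with COX5A at -0.15. The largest rises kept their direction and call, with NDUFB2 at 0.70, UQCRQ at 0.79, UQCR11 at 0.77, COX8A at 0.48 and ATP5ME at 0.24. So did the falls of ATP5F1A at -0.60, UQCRC2 at -0.47 and NDUFS1 at -0.28. COX4I1, COX7B and UQCRH were no longer called (adjusted p = 0.478, 0.874 and 0.729, edgeR). The share of all genes called with this offset is not given here or below, so no count with it can be set beside that share.

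**Figure D4:**
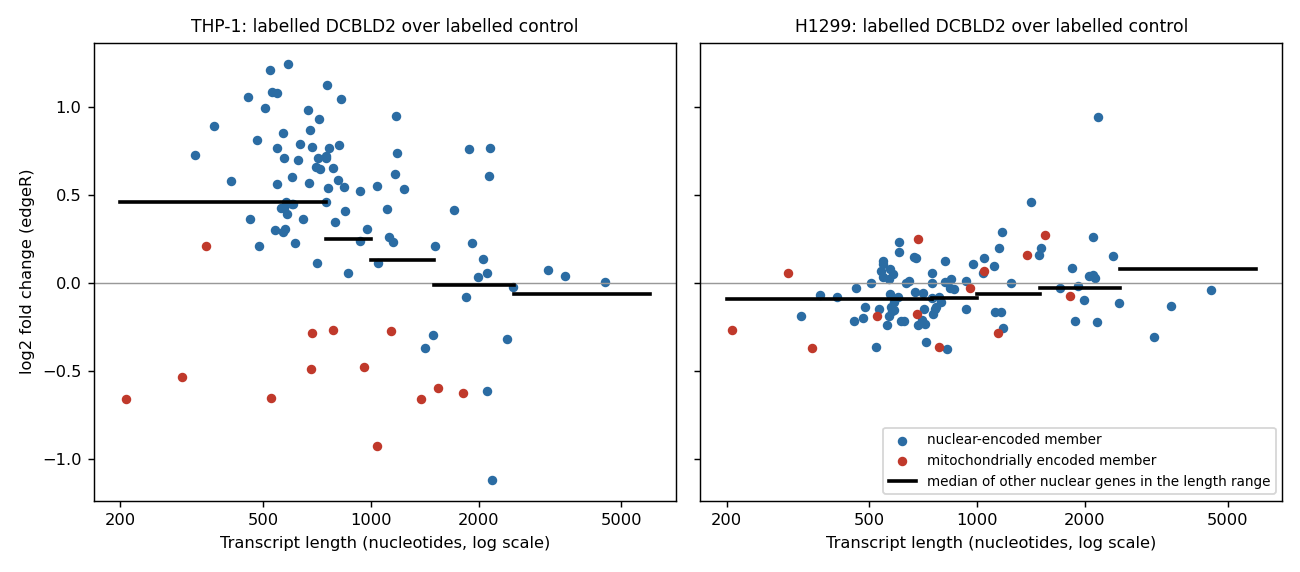
Log2 fold change (edgeR, vertical axis) against transcript length in nucleotides (horizontal log axis) for the tested members, THP-1 left and H1299 right, labelled DCBLD2 over labelled control. Blue points are nuclear-encoded and red points mitochondrially encoded members, and black bars are medians of other nuclear genes in 5 length ranges. In THP-1 the bars step down, with 0.46 up to 750 nucleotides and -0.06 over 2500, the blue points sit mostly above them, and the red points lie below.

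Factors known to control respiratory genes include NRF1, GABP and YY1, and the promoters were searched for their motifs. RefSeq promoters (GRCh38.p14, 250 bases before to 50 bases after the start) were found for 71 of the 91 nuclear-encoded members and read on both strands. Of these, 31 (43.7%) held at least 1 of the 3 motifs, beside 13.7% of 27305 promoters and 24.8% of those of 10501 genes tested in THP-1. The NRF1 motif CGCATGCG stood in 10 of them (14.1%), beside 2.19% and 3.79% of the same sets. The ETS motif CCGGAAG, bound by GABP, stood in 20 (28.2%), beside 10.7% and 19.2%. The YY1 motif AAGATGGCG stood in 8 (11.3%), beside 1.85% and 3.88%. No motif holds another of the 3. Among member promoters of genes called higher in THP-1, 9 of 58 held NRF1, 18 held ETS and 6 held YY1, and among the 4 of genes called lower, 0 held NRF1, 1 held ETS and 0 held YY1.

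The lines that follow hold 2 promoters of members that were higher in THP-1 labelled DCBLD2, ATP5ME (chr4:674227-674526, minus strand) and UQCRQ (chr5:132866392-132866691, plus strand), and 2 of members that were lower, ATP5F1A (chr18:46104178-46104477, minus strand) and NDUFS1 (chr2:206159395-206159694, minus strand). They set promoters of rising and falling members side by side. Capitals mark NRF1 and ETS matches, in ATP5ME at -77 and 3 from the start, in UQCRQ at -54 and in NDUFS1 at -157, and ATP5F1A has no match to the 3 motifs in this window.
ATP5ME: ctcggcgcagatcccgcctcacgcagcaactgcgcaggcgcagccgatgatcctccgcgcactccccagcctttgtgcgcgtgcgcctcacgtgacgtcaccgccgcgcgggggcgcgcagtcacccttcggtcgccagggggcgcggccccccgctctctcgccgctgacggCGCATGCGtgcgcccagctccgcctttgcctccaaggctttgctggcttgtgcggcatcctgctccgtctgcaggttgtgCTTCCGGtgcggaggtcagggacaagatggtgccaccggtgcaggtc
UQCRQ: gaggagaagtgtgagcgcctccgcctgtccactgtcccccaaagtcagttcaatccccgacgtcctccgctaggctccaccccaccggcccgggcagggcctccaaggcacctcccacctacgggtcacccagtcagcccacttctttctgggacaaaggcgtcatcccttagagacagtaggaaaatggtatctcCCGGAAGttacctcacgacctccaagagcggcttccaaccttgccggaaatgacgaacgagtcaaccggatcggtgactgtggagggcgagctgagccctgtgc
ATP5F1A: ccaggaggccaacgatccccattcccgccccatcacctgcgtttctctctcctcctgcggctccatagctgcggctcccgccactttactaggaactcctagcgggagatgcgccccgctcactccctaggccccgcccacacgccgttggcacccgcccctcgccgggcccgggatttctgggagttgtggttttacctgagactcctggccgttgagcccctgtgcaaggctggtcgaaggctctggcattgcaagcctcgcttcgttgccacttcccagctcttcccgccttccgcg
NDUFS1: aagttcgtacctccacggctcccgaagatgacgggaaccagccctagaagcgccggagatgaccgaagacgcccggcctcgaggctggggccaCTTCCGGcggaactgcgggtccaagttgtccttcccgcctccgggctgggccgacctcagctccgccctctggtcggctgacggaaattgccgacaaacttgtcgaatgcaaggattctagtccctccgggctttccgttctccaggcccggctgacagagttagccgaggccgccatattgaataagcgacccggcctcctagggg

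In H1299 few members were called. The spread between libraries was wider there than in THP-1, and its part in the number of calls was not tested. Of 98 tested members, 1 was called higher and 1 lower in H1299 labelled DCBLD2, where 20.9% of 12773 genes were called, 10.3% higher and 10.6% lower. The mitochondrial sum was 60569, 55895 and 51369 TPM in H1299 labelled DCBLD2 and 55207, 51884 and 55458 TPM in H1299 labelled control, and the nuclear sum was 23705, 22648 and 24529 TPM in labelled DCBLD2 and 22959, 26091 and 23776 TPM in labelled control. Both sums overlapped between the groups. On the log2 scale the median difference was -0.07 over the 13 mitochondrially encoded members and -0.04 over 85 nuclear-encoded members. In complex II the log2 fold changes were 0.26 for SDHA, 0.20 for SDHB, -0.03 for SDHC and -0.03 for SDHD, none of them called, and CYC1 and CYCS were not called either.

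UQCRC2 was the member called higher in H1299, with 120, 125 and 117 TPM in labelled DCBLD2 and 85.5, 82.5 and 93.9 TPM in labelled control. Its groups did not overlap, and its log2 fold change was 0.46 ± 0.10 (SE; adjusted p = 0.0143, edgeR). Without H1299 labelled DCBLD2 replicate 1 or 2 its adjusted p was 0.0577 or 0.0635. MT-CO3 was the member called lower, with 6067, 5373 and 5331 TPM in labelled DCBLD2 and 7353, 7258 and 6772 TPM in labelled control. Its groups did not overlap either, and its log2 fold change was -0.36 ± 0.10 (SE; adjusted p = 0.0327, edgeR). That call was lost without any of the 3 labelled DCBLD2 replicates or without labelled control replicate 2, where its adjusted p ran between 0.0537 and 0.158. The other mitochondrially encoded complex IV subunits had log2 fold changes of 0.27 for MT-CO1 and 0.25 for MT-CO2, neither of them called (adjusted p = 0.0634 and 0.0962, edgeR). With the length offset, 2 mitochondrially encoded members were called higher and 1 lower in H1299, and 3 nuclear-encoded members higher and 0 lower.

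The difference of the 2 lines' responses was tested itself, in 1 fit over all libraries. Of the 13 mitochondrially encoded members, 10 had a lower response in THP-1 than in H1299, 1 a higher one and 2, MT-CYB and MT-CO3, were not called. Of 85 nuclear-encoded members, 57 had a higher response in THP-1 and 5 a lower one. Over 14244 genes 38.7% were called, 19.3% higher and 19.5% lower. The median difference was -0.48 for the mitochondrially and 0.56 for the nuclear-encoded members, beside -0.03 over all genes. With the length offset the nuclear-encoded count was 28 higher and 13 lower. NDUFB2 had the highest positive difference among members, 1.56 ± 0.15 (SE; adjusted p = 6.09e-06, edgeR). UQCRC2 was the member called in both lines in opposite directions, at 0.46 in H1299 and -0.37 in THP-1, a difference of -0.84 ± 0.10 (SE; adjusted p = 3.6e-05, edgeR).

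The labelled control groups of the lines were also compared. THP-1 labelled control had PMA and exposure to H1299, and H1299 labelled control had neither, so the line and these treatments cannot be told apart. Between THP-1 labelled control and H1299 labelled control, 10 of 13 mitochondrially encoded members were called higher in THP-1 and 0 lower. Their median was 0.66 on the log2 scale, and the 7 subunits of complex I led with a median of 0.87. MT-ND4, a proton-pumping subunit of complex I, had 6343, 6450 and 6449 TPM in THP-1 labelled control and 3585, 3460 and 3887 TPM in H1299 labelled control, with its log2 fold change at 1.09 ± 0.06 (SE; adjusted p = 1.19e-07, edgeR). MT-CYB, MT-CO2 and MT-CO3 were not called. The size of these differences, and some directions, depended on the scaling. By limma on log2(TPM + 1), 9 of the 13 were called higher and 2, MT-CO3 and MT-CYB, lower, with a median of 0.39. The share of all genes called by limma is not given here. The summed TPM of the 13 was 16.2% higher in THP-1 labelled control than in H1299 labelled control. Of 85 nuclear-encoded members, 12 were called higher and 56 lower in THP-1, with a median of -0.54. Over 13892 genes, 84.8% were called, 41.7% higher and 43.1% lower. Complex V stood lowest, with a median of -0.88. With the length offset, 28 nuclear-encoded members were called higher and 32 lower (median -0.11), and all 13 mitochondrially encoded members were higher. This comparison shares its labelled control libraries with the comparisons within each line, so the values are only set side by side.

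Between the lines, nuclear-encoded members of a complex did not all go the same way. COX5B, a zinc-binding subunit of complex IV, had 472, 475 and 466 TPM in THP-1 labelled control and 276, 320 and 261 TPM in H1299 labelled control, at 0.99 on the log2 scale. Among the lower ones, NDUFA12, an accessory subunit of complex I, had 64.4, 70.9 and 68.4 TPM in THP-1 labelled control and 362, 388 and 339 TPM in H1299 labelled control, at -2.11. UQCRFS1 stood at -1.89, COX6B1, which faces the intermembrane space, at -1.76, and ATP5MJ, a small membrane subunit of complex V, at -1.77.

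Summed by complex, the levels of nuclear-encoded subunits ranked as follows. Nuclear-encoded complex V transcripts summed to 4355 ± 100 TPM in THP-1 labelled DCBLD2 and 3510 ± 18.2 TPM in THP-1 labelled control, and to 7103 ± 240 TPM in H1299 labelled DCBLD2 and 7308 ± 514 TPM in H1299 labelled control (SD, n = 3 each). Complex IV summed to 5907 ± 168 TPM in THP-1 labelled DCBLD2 and 3706 ± 25.3 TPM in THP-1 labelled control, and to 6294 ± 372 TPM in H1299 labelled DCBLD2 and 6535 ± 449 TPM in H1299 labelled control. Complex I summed to 6554 ± 170 TPM in THP-1 labelled DCBLD2 and 4451 ± 22.5 TPM in THP-1 labelled control, and to 6921 ± 309 TPM in H1299 labelled DCBLD2 and 7239 ± 494 TPM in H1299 labelled control. The sums run over 37 members of complex I, 19 of complex IV and 20 of complex V, so their order depends on these numbers. In both THP-1 groups complex I had the highest sum, then complex IV, then complex V. In both H1299 groups complex V had the highest mean, and it differed from that of complex I by less than 1 SD of either. The median level over all listed members, unread ones included, ranked these complexes differently in THP-1, with complex V highest, then complex I, then complex IV. In THP-1 labelled DCBLD2 the medians were 219 TPM for complex V, 146 TPM for complex I and 115 TPM for complex IV. In THP-1 labelled control they were 164, 101 and 87.7 TPM in the same order. Only 13 of the 19 complex IV members passed the filter on low counts in THP-1. The others are tissue-type isoforms at or near 0 there, which lower the complex IV median, so its last place depends on counting them. These sums and medians describe levels, and no test was run on them.

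Complex IV has tissue-type isoforms, most of them known from muscle or testis, and few were read here. COX4I2, COX6A2 and COX7A1 were listed at 0 in all 12 libraries, and COX6B2 and COX8C did not exceed 0.376 TPM in any. Their general counterparts were abundant, with COX6A1 at 709, 670 and 660 TPM in THP-1 labelled DCBLD2 and 421, 413 and 446 TPM in THP-1 labelled control. COX7B2, known from testis, was an exception: it had 76.2, 77.7 and 75.8 TPM in H1299 labelled DCBLD2 and 79.7, 91.6 and 73.8 TPM in H1299 labelled control. In THP-1, COX7B2 was above 0 in 1 library of each group, at 0.377 TPM in labelled DCBLD2 and 0.139 TPM in labelled control, so no fold between the lines is given. Its counterpart COX7B had 95.4, 83.3 and 89 TPM in THP-1 labelled DCBLD2 and 68.5, 66.6 and 61.6 TPM in THP-1 labelled control. COX7A2, the general form of COX7A1, had 989, 990 and 945 TPM in THP-1 labelled DCBLD2 and 561, 584 and 566 TPM in THP-1 labelled control, and rose by 0.81. COX7A2L, a relative that joins complexes III and IV into supercomplexes, rose by 0.42. NDUFA4L2, a hypoxia-responsive relative of NDUFA4, was low, with 5.72, 5.99 and 5.26 TPM in THP-1 labelled DCBLD2 and 3.23, 2.59 and 3.22 TPM in THP-1 labelled control, with its log2 fold change at 0.95 ± 0.19 (SE; adjusted p = 7.48e-05, edgeR).

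**Figure D5:**
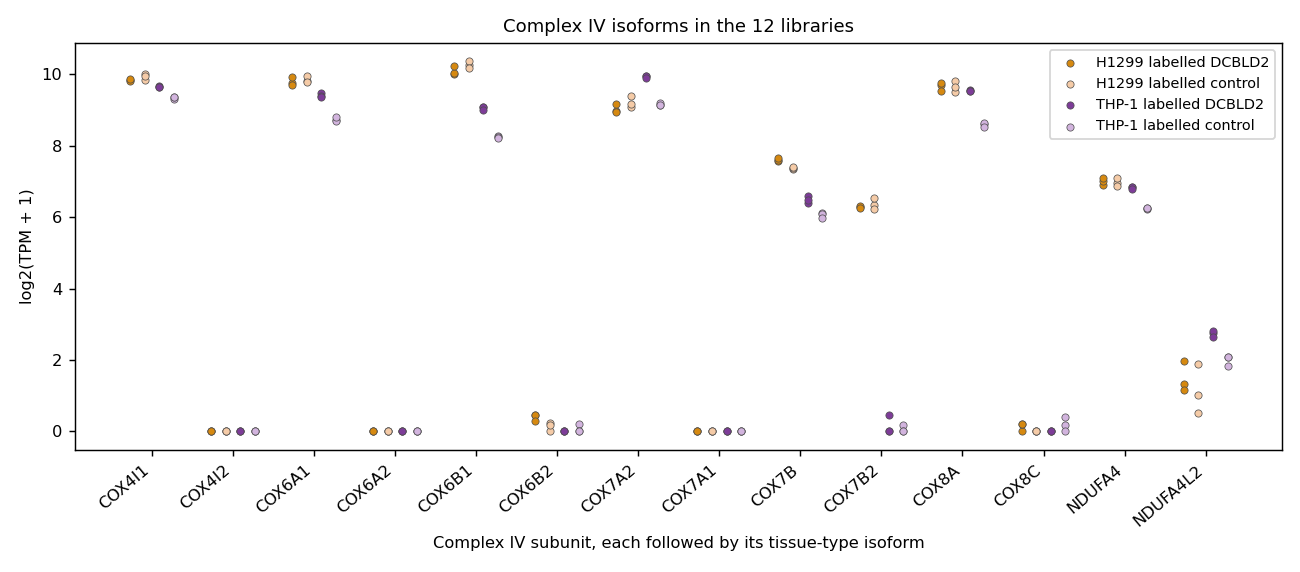
Levels as log2(TPM + 1) (vertical axis) of complex IV subunits and their tissue-type isoforms (horizontal axis), with points for the 3 libraries of each group. Orange is H1299 and purple THP-1, and the darker shade is labelled DCBLD2. COX4I2, COX6A2 and COX7A1 lie at 0 in all 12 libraries, and COX7B2 is above 70 TPM in H1299 and at or below 0.377 TPM in THP-1.

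Genes that build or maintain the chain moved in both directions in THP-1. Of 56 assembly factors tested, 28 were called higher and 8 lower in THP-1 labelled DCBLD2, with a median of 0.21, beside 34.5% and 33.6% of all genes. By the complex they serve, 8 of 18 rose and 2 fell for complex I, 2 of 4 rose for complex II, 4 of 6 rose and 2 fell for complex III, 13 of 24 rose and 3 fell for complex IV, and 1 of 4 rose and 1 fell for complex V. NDUFAF8, a complex I assembly factor, had 110, 111 and 110 TPM in labelled DCBLD2 and 59.6, 55.4 and 55 TPM in labelled control, a rise of 0.99. PET100, a chaperone of complex IV, rose by 1.03, and LYRM7, which helps insert the Rieske protein into complex III, by 1.06. UQCC1, a complex III assembly factor, was lower at -0.33, and so was TTC19, which keeps that complex clear of Rieske fragments, at -0.39. Of 28 genes for mitochondrial DNA and RNA, 14 rose and 10 fell, with a median of 0.10, beside the same shares. HSD17B10, a subunit of the mitochondrial RNase P that frees tRNAs from the polycistronic transcripts, rose by 0.87, whereas POLG2, the accessory subunit of the mitochondrial DNA polymerase, fell to 6.25, 5.57 and 6.32 TPM in labelled DCBLD2, against 9.68, 11 and 11 TPM in labelled control, a change of -0.90 ± 0.10 (SE; adjusted p = 1.67e-08, edgeR).

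The lists that follow also stand beside 34.5% of all genes higher and 33.6% lower in THP-1, and with 9 to 14 genes each they are described only. Of 9 tested regulators of mitochondrial biogenesis, 4 rose and 4 fell. PPARGC1B, a coactivator of respiratory gene transcription, changed by -0.68 and YY1 by -0.28, whereas ESRRA, a nuclear receptor it works with, rose by 0.41 and MYC by 0.40. Of 14 citric acid cycle genes, 6 rose and 4 fell, with a median of 0.07: IDH2, the mitochondrial NADP-dependent isocitrate dehydrogenase, rose by 0.49 and CS, citrate synthase, changed by -0.17. Of 14 other mitochondrial proteins, 6 rose and 3 fell, with a median of 0.03. SLC25A6, an ADP/ATP carrier, rose by 0.43, and SLC25A3, the phosphate carrier, changed by -0.20. In H1299, 4 of the 56 assembly factors were called higher and 6 lower, where 10.3% of all genes were higher and 10.6% lower. COX20, which holds the MT-CO2 protein ready for complex IV assembly, fell to 33.7, 32.6 and 29.6 TPM in H1299 labelled DCBLD2, against 50.3, 65.3 and 53.3 TPM in labelled control, a change of -0.84 ± 0.12 (SE; adjusted p = 0.00329, edgeR). COX10, which makes the haem of complex IV, rose by 0.59. LRPPRC, which stabilises mitochondrial mRNAs, had 72, 82.9 and 59.3 TPM in H1299 labelled DCBLD2 and 47.9, 26.9 and 43 TPM in H1299 labelled control, with its log2 fold change at 0.82 ± 0.18 (SE; adjusted p = 0.0145, edgeR). Between the lines, 9 of the 56 assembly factors were called higher and 36 lower in THP-1 labelled control than in H1299 labelled control, with a median of -0.54, where 41.7% of all genes were higher and 43.1% lower.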

How the data were processed

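RNA from 12 libraries of established human cell lines was enriched for mRNA and made into libraries with a NEBNext Ultra kit, per the labels' protocols. The authors deposited 1 table with an estimated count and a TPM value for each gene and library. Fastp 0.18.0, Bowtie2 2.2.8, HISAT2, StringTie 1.3.1, RSEM and hg38 are named per the submitters' processing notes, and no source used here gives their roles, the annotation release or the use of strand. mRNA enrichment favours transcripts with poly(A) tails, and TPM values depend on the transcript lengths the authors' annotation gave.

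The deposited counts were rounded to whole numbers and fitted with edgeR 4.0.16 in R 4.3.3 (quasi-likelihood, TMM, filterByExpr at a minimum count of 10), without covariates, separately for each comparison, with p-values adjusted over all genes tested and called at 0.05. The step was tested on simulated data. The members, lists, named-gene rule and tests were chosen with earlier results of these data known. Named were all mitochondrially encoded members, complex II, CYC1 and CYCS, the 2 largest rises and falls per complex and comparison, isoform pairs, members called in both lines in opposite directions, and, as examples, called genes of smallest p in each list. Members named beyond this rule (COX5A, NDUFV3, ATP5F1B, UQCRC1, ATP5MGL) were chosen after their values were seen. Positions and transcript lengths came from GENCODE 29 (GRCh38), where all 104 members were found, and promoters from RefSeq. Alternatives were DESeq2 1.42.0, limma 3.58.1 on log2(TPM + 1), other filters and scalings, leaving out each library, and a length correction (loess, span 0.5) added after seeing the data. MT-RNR1 and MT-RNR2 were not analysed here. The values of 1 named member are not reported here.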

Additional observations from a re-analysis of the deposited data

Results flagged for a closer look

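Among 58 named members, 38 had responses in THP-1 and H1299 that differed by a direct test, which is why they are listed. The test was the edgeR interaction over all 12 libraries at an adjusted p below 0.05, which called 38.7% of 14244 genes. Some of the 58 were named for large changes in these same data, so their share cannot be compared with that of all genes. Each value is the log2 response in THP-1 minus that in H1299.

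Mitochondrially encoded members were lower in THP-1 by this measure, with MT-ND2 at -1.01, MT-CO1 at -0.88, MT-ND4 at -0.83, MT-ND4L at -0.61, MT-ND5 at -0.57, MT-CO2 at -0.55, MT-ND6 at -0.48, MT-ND1 at -0.46, MT-ATP8 at -0.42 and MT-ATP6 at -0.32. The exception was MT-ND3 at 0.57. The nuclear-encoded members with a lower response in THP-1 were UQCRHL at -2.07, UQCRC2 at -0.84, ATP5F1A at -0.67, NDUFS1 at -0.48 and NDUFA10 at -0.46.

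Higher responses in THP-1 were found in complex I for NDUFB2 at 1.56, NDUFB7 at 1.23, NDUFA3 at 0.65 and NDUFA12 at 0.33, and in complex II for SDHC at 0.38. In complex III they were UQCRQ at 1.39, UQCR11 at 1.29 and CYC1 at 0.52. In complex IV they were COX6B1 at 1.03, COX7A2 at 1, COX8A at 0.99, COX5B at 0.85, COX7C at 0.82, COX6A1 at 0.76, NDUFA4 at 0.57, COX4I1 at 0.44 and COX7A2L at 0.31. In complex V they were ATP5F1E at 0.97, ATP5ME at 0.95, ATP5MJ at 0.78, ATP5MC3 at 0.57 and ATP5MC2 at 0.56.

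Some of these calls depended on single libraries. That of MT-ATP6 was lost without H1299 labelled DCBLD2 replicate 1, H1299 labelled control replicate 1 or 3, or THP-1 labelled DCBLD2 replicate 2, at differences between -0.30 and -0.17. MT-ATP8 lost its call without H1299 labelled DCBLD2 replicate 1 or 3, any H1299 labelled control replicate, THP-1 labelled DCBLD2 replicate 2 or 3, or THP-1 labelled control replicate 3, at differences between -0.41 and -0.26. MT-ND3 lost it without THP-1 labelled DCBLD2 replicate 1, at 0.47. NDUFA12 lost it with the replicate block, by limma, without H1299 labelled DCBLD2 replicate 2 and without any single THP-1 library, at differences between 0.22 and 0.36. Under the length correction the differences of ATP5MC2 at 0.17, ATP5MC3 at 0.19, ATP5ME at 0.23, COX4I1 at 0.04, COX6A1 at 0.22 and COX7A2L at 0.06 were no longer called. MT-ND3 at -0.18 and NDUFA3 at -0.02 lost their calls and changed sign, and NDUFA12 at -0.28 and SDHC at -0.24 were called in the opposite direction.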

How the results depend on the processing

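The replicate numbers did not pair the H1299 libraries, and in THP-1 all correlations were weak. Deviations of same-numbered libraries correlated at -0.113, -0.395 and -0.406 in H1299 and at 0.027, 0.057 and 0.034 in THP-1. The other THP-1 pairs across the groups were lower, between -0.051 and 0.014. In H1299, labelled DCBLD2 replicates 1, 2 and 3 correlated at 0.365, 0.369 and 0.518 with labelled control replicates 3, 1 and 2. No other pair of H1299 libraries across the groups exceeded 0.045. Pairing by these values was not fitted, and whether they reflect a batch was not tested. With the replicate block, 0 mitochondrially and 1 nuclear-encoded members were called in H1299, 13 and 78 in THP-1, 10 and 67 between the lines and 11 and 60 for the difference.

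In H1299, where 1 member of each genome was called, mitochondrially encoded calls numbered 3 by DESeq2, 3 with the length correction, 5 with all 12 libraries in 1 fit and 0 at 1.5-fold or more. Nuclear-encoded calls there numbered 3 with the length correction, 3 by limma on log2(TPM + 1), 9 in the fit of all 12 libraries and 0 at 1.5-fold. At 1.5-fold or more, calls in THP-1 numbered 6 (mitochondrial) and 37 (nuclear), nuclear-encoded calls between the lines 45, and calls for the difference 4 and 40. The length correction gave 41 nuclear-encoded calls for the difference. Shares of all genes called are not given for the alternatives in this section. Leaving out single libraries gave 0 to 2 calls for each genome in H1299, 13 to 13 and 75 to 78 in THP-1, 10 to 12 and 64 to 73 between the lines, and 9 to 11 and 58 to 75 for the difference. With the wider common spread of H1299 given to THP-1 and a likelihood ratio test, THP-1 kept 9 mitochondrially encoded calls (0 higher) and 56 nuclear-encoded calls (54 higher, 2 lower).

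Under the length correction the log2 fold change in THP-1 turned to -0.174 for ATP5IF1, -0.188 for ATP5MC1, -0.154 for COX5A, -0.468 for MT-ND3, -0.322 for NDUFA12, -0.028 for NDUFA3, -0.190 for SDHC and -0.240 for SDHD. The difference of responses turned to -0.291 for ATP5IF1, -0.108 for COX5A, -0.309 for COX7B, -0.322 for MT-CO3, -0.175 for MT-ND3, -0.277 for NDUFA12, -0.024 for NDUFA3, -0.244 for SDHC, -0.289 for SDHD and -0.251 for UQCRH. Between the lines it turned to 0.282 for ATP5MC3, 0.178 for COX4I1, 0.363 for CYCS and 0.019 for UQCR11. By limma on TPM the difference between the lines turned to -0.234 for COX5A, -0.223 for COX7A2L, -0.215 for MT-CO3 and -0.268 for MT-CYB. The causes were not tested. The 7 nuclear-encoded members not tested in THP-1 were at or near 0 there, and UQCRHL was read at 1.77 TPM or less in THP-1, so depth limits what can be said of them.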
